A study of Mus musculus with 5 samples.

Results

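Perirenal white adipose tissue (NWAT) held 141 nuclei that carried the transcripts of contracting skeletal muscle fibres, out of 12780 nuclei of that depot that passed the filters (1.10%, exact 95% binomial interval 0.929 to 1.30%) and 75891 nuclei over 5 depots. They were chosen from their own counts of unique molecular identifiers (UMIs). A muscle nucleus had at least 200 genes, at most 10% mitochondrial UMIs and at least 6 UMIs summed over the 8 skeletal muscle genes Ttn, Neb, Trdn, Ryr1, Myh4, Myh1, Myh2 and Mybpc1, with at least 2 of them detected. It could hold at most 1 UMI summed over Pdgfra, Flt1, Ptprb, Mrc1, Upk1b and Acvr1c, which mark stromal, endothelial, immune, mesothelial and fat cells. The other 12639 NWAT nuclei are the set they are compared with. Both sets came from 1 library and the same counts chose the members, so every value below is a description of that library with no test, and all intervals are 95% intervals that cover counting error only.

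The material was single nuclei of fat pads of male mice aged 10 weeks on chow diet, and the submitters set out to chart the cell types of the NWAT (perirenal), SWAT (subcutaneous), EWAT (epididymal), MWAT (mesenteric) and HWAT (peri-heart) depots. Blood was flushed out with heparinised buffer before dissection, and lymph nodes were cut away from SWAT and MWAT. NWAT, SWAT and EWAT nuclei were pooled from 6 mice each, MWAT from 10 and HWAT from 20, with 1 library per depot and no replicate. The protocol names C57BL/6J mice for every depot, while the strain field reads C57BL/8J for NWAT, C57BL/7J for MWAT and C57BL/9J for HWAT. The labels list 6 kinds of cell in these depots and muscle is not among them. Adipoq, the adipocyte hormone adiponectin, was found in 80.1% of the other NWAT nuclei. The libraries held 23125114 to 43855063 UMIs in nuclei that passed the filters. Of the 141 muscle barcodes, 2 also occurred in another depot's library, against 211 of all NWAT barcodes.

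A skeletal muscle fibre is a single cell with many nuclei, and its speed follows the myosin heavy chain it makes. In mouse muscle Myh4 encodes the fast glycolytic type IIB chain, Myh1 the fast type IIX chain, Myh2 the fast oxidative type IIA chain and Myh7 the slow type I chain of red, fatigue-resistant fibres. The adult fast genes lie side by side in 1 cluster and share sequence in their promoters, which MEF2 and MyoD-family factors bind.

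The fast myosin genes of the cluster are transcribed from the plus strand of chromosome 11 in the order Myh2 (67171027 to 67197517), Myh1 (67200052 to 67224575) and Myh4 (67238029 to 67260446) on GRCm38. Their promoters are shown because the choice among these 3 genes is what sets the fibre types described below. Each sequence runs from 250 to 51 bases before the start that RefSeq gives on GRCm38.p6, and capitals mark the longest run of letters that all 3 share, 20 bases. The run begins 163 bases before the start of Myh4, 165 before that of Myh1 and 130 before that of Myh2.
Myh4 (chr11:67237562-67237761, plus strand): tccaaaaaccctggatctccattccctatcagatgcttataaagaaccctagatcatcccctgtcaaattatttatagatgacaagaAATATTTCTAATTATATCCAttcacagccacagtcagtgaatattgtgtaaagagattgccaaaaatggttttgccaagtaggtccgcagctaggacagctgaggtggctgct
Myh1 (chr11:67199852-67200051, plus strand): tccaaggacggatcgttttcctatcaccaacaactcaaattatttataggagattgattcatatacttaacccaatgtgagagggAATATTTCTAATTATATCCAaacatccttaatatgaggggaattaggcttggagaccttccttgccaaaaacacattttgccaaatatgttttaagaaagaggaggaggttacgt
Myh2 (chr11:67170777-67170976, plus strand): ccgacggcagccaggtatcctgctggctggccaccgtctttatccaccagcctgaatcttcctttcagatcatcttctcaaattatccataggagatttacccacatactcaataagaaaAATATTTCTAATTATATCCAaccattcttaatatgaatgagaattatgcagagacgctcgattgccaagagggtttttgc

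Both strands of these windows were searched for 2 motifs, which did not overlap the shared run. The E-box CANNTG, the site of MyoD-family factors, was found at 2 places in the Myh4 window and at 0 in those of Myh1 and Myh2, and 58.9% of 27025 mouse promoter windows of the same length hold it. The MEF2 motif was found once each in the Myh4 and Myh1 windows and not in that of Myh2, and 2.46% of the windows hold it. A match describes the letters and not a bound site.

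The cut in muscle UMIs fell in a thinly filled range. Just inside it, 4 nuclei had 6 muscle UMIs, 1 had 7 and 1 had 8, no nucleus had 9 or 10, and the remaining 135 had 11 or more, up to 701. Just outside it, 3 nuclei had 5 muscle UMIs and 9 had 4, with the other conditions met. The 6 nuclei with 6 to 8 muscle UMIs carried adipocyte marker transcripts at a median of 1.16% of their UMIs, against 0.260% in the 135 others. The limit on other cell types left out 19 nuclei with 6 or more muscle UMIs, which held 2 to 12 UMIs of the limiting genes and 6 of which held exactly 2. Of the members, 115 had 0 such UMIs and 26 had 1.

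The muscle nuclei were shallower than the rest. Their UMIs per nucleus ran from 500 to 17212 with a median of 1789, and their genes from 273 to 3262 with a median of 873. In the other NWAT nuclei the medians were 2654 UMIs and 1472 genes. Mitochondrial UMIs made up a median of 1.02% in muscle nuclei and 0.469% in the others.

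The nuclei carried one fast myosin almost throughout. Each nucleus was given the myosin heavy chain with the most UMIs among Myh4, Myh1, Myh2 and Myh7, provided it had at least 2 UMIs and was not tied. Myh4 led in 127 nuclei (90.1%, 83.9 to 94.5%), Myh2 in 6 (4.26%, 1.58 to 9.03%), Myh1 in 2 and Myh7 in 1, and 5 had no leading chain. Of the 3046 UMIs of these 4 genes, Myh4 took 96.8%, Myh2 1.94%, Myh1 1.18% and Myh7 0.0985%. The rule had summed Myh4, Myh1 and Myh2, so these shares are a property of the selected nuclei. Myh7 was not in the rule, but a slow fibre nucleus could enter only through the other genes of the sum.

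Most nuclei showed a single chain. Myh4 was found in 132 nuclei, in 127 of them with none of the other 3 genes and in 5 with another, which was Myh1 in 3 and Myh2 in 2. Per muscle nucleus Myh4 had a median of 11 UMIs, quartiles of 7 and 19 and a highest value of 384. The UMIs of Myh1 and Myh2 overlapped in 6 nuclei, 5 of them led by Myh2 and 1 by Myh1. The 5 nuclei with no leading chain had 1 Myh4 UMI in 3 cases and no UMI of the 4 genes in 2.

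**Figure D1:**
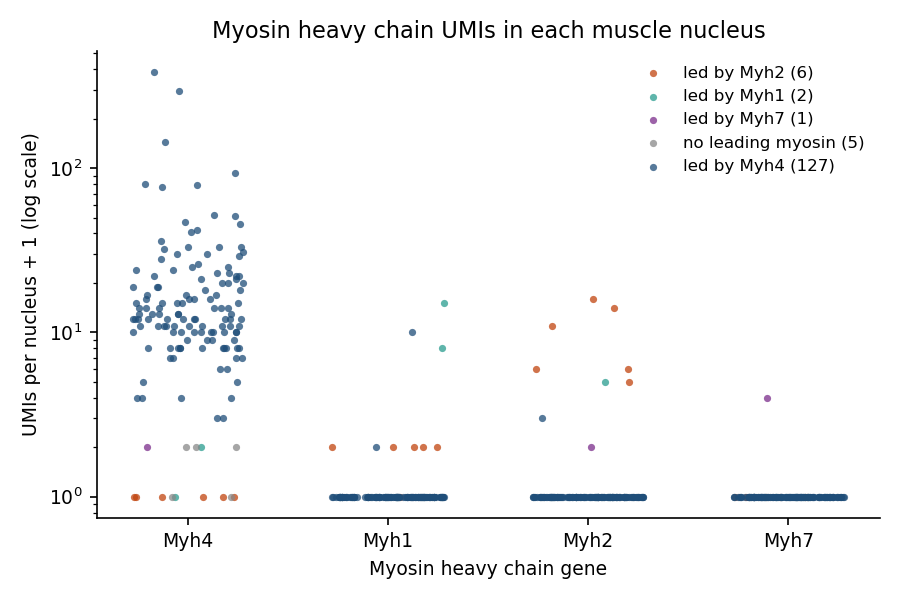
UMIs of 4 myosin heavy chain genes in each of the 141 muscle nuclei (y axis, UMIs plus 1 on a log scale; x axis, gene; points, nuclei coloured by leading chain and spread sideways for sight). The 127 nuclei led by Myh4 have 2 to 384 Myh4 UMIs, while Myh1, Myh2 and Myh7 are at 0 in most nuclei.

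The 6 nuclei led by Myh2 had 15, 13, 10, 5, 5 and 4 Myh2 UMIs and not a single Myh4 UMI. 5 of them had 1 Myh1 UMI. Their total depth was 500 to 1912 UMIs, so low-level transcripts could be missed in each. The 2 nuclei led by Myh1 had 14 Myh1 UMIs beside 1 of Myh4 and 0 of Myh2, and 7 Myh1 UMIs beside 0 of Myh4 and 4 of Myh2. The nucleus led by Myh7 had 1210 UMIs in all, with 3 of Myh7, 1 of Myh4 and 1 of Myh2. It also held 9 UMIs of Tnnt1, 8 of Tnnc1, 7 of Myl3 and 6 of Myl2, which encode slow troponins and myosin light chains. Those were most of the UMIs of these genes in all muscle nuclei, which totalled 13 for Tnnt1, 10 for Tnnc1, 8 for Myl3 and 7 for Myl2. This nucleus had 6 muscle UMIs, the lowest value the rule admits. Removing likely doublets by simulated-doublet scores took 4 of the 6 nuclei led by Myh2, the only one led by Myh7 and 4 of the 5 with no leading chain, against 7 of the 127 led by Myh4. Without the removed nuclei, the share led by Myh2 was 1.60% and the share led by Myh4 was 96.0%.

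No UMI of a developmental myosin was seen. Myh3 (embryonic) and Myh8 (perinatal), which mark new or regenerating fibres, Myh13 of eye muscles, Myh7b and the heart gene Myh6 all had 0 UMIs in the muscle nuclei, a count that allows up to 9.45 CPM (the UMIs of a gene per 1000000 UMIs of the summed nuclei). Myh14, a nonmuscle myosin, had 8 UMIs and Myh15 had 1. The antisense RNA Myhas, which starts between Myh1 and Myh4 and runs into Myh1 on the minus strand (67211256 to 67237573), had 60 UMIs in 40 muscle nuclei, at 189 CPM in muscle nuclei against 0.290 CPM in the other NWAT nuclei. It overlaps Myh1, and whether the counts were kept apart by strand is not given in the sources used here. A lincRNA upstream of the cluster, 2310065F04Rik (67112461 to 67120080, minus strand), had 29 UMIs in 24 muscle nuclei.

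Levels of all genes were compared as UMIs summed over nuclei. A gene was examined with at least 20 UMIs in both sets together and called at a 2-fold difference, with a gene at 0 set to 3 counts and more than 3 UMIs asked of the higher side. Of 16689 genes, 1062 were higher in muscle nuclei (6.36%) and 4465 lower (26.8%). Below, the list counts of muscle nuclei against the other nuclei are to be set beside these shares. The median log2 difference over these genes was -0.41, or -0.10 with genes at 0 set to 3 counts. All 8 genes of the rule were higher, which the selection made certain, and their calls say nothing further. The other genes come from the same nuclei and library, so they too describe these nuclei.

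Of the rule genes, Ttn gave the most UMIs and Myh4 came next. Ttn, the spring of the sarcomere, had 3902 UMIs and was found in 138 of 141 nuclei, at 12296 CPM in muscle nuclei against 21.4 CPM in the other NWAT nuclei. Neb, the ruler of the thin filament, was at 4175 CPM in muscle nuclei against 11.1 CPM in the others. Trdn, which anchors the calcium store of the triad, was at 5575 CPM in muscle nuclei against 8.77 CPM in the others, and Ryr1, the calcium release channel, at 1925 CPM in muscle nuclei against 4.53 CPM in the others. Myh4 was at 9290 CPM in muscle nuclei and at 28.0 CPM in the others, and Mybpc1, a slow-type myosin-binding protein, at 192 CPM in muscle nuclei and 0.606 CPM in the others.

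The fast fibre genes outside the rule were higher without exception. All 15 of the list were examined and called higher in muscle nuclei, with a median log2 difference of 7.90. Acta1, the skeletal actin common to all fibre types, which is in the sarcomere list, was found in all 141 nuclei at 21259 CPM (20754 to 21772) in muscle nuclei against 115 CPM in the other NWAT nuclei, a ratio of 185 (178 to 193). Tnnt3, the fast troponin T, was at 17685 CPM in muscle nuclei against 66.8 CPM in the others. Atp2a1, the fast calcium pump, was found in 139 nuclei at 5754 CPM in muscle nuclei against 13.6 CPM in the others. Actn3, the fast Z-disc actinin, was at 1283 CPM in muscle nuclei against 4.50 CPM in the others, and Pvalb, a calcium buffer of fast fibres, at 1702 CPM in muscle nuclei against 6.79 CPM in the others.

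The slow fibre genes were mostly absent or low. Of 12 genes in the list, 7 could be examined, of which 4 were called higher and 2 lower in muscle nuclei, and the summed level was 224 CPM in muscle nuclei against 210 CPM in the other NWAT nuclei. The 4 called higher (Tnnt1, Tnnc1, Myl2 and Myl3) are those of the single nucleus led by Myh7. The 2 called lower are also made by other cells: the calcium pump Atp2a2 was at 31.5 CPM in muscle nuclei against 85.1 CPM in the others, and the tropomyosin Tpm3 at 41.0 CPM in muscle nuclei against 119 CPM in the others. Tnni1, the slow troponin I, had 2 UMIs.

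Contractile and calcium-handling genes were mostly higher. Of 32 examined sarcomere genes outside the rule, 27 were higher and 1 lower in muscle nuclei, with a median log2 difference of 7.36. Tcap, the titin cap of the Z-disc, was at 4207 CPM in muscle nuclei against 13.7 CPM in the other NWAT nuclei, and Myoz1, a Z-disc protein of fast fibres, at 3148 CPM in muscle nuclei against 6.43 CPM in the others. The one called lower was Nebl, a relative of Neb used in heart and other tissues, with 0 UMIs in muscle nuclei against 13.6 CPM in the others. Of 21 examined genes of excitation-contraction coupling outside the rule, 20 were higher and the lipid phosphatase gene Mtm1 was lower, with a median log2 difference of 5.94. Cacna1s, the voltage sensor that opens Ryr1, was at 148 CPM (109 to 197) in muscle nuclei against 0.263 CPM in the others, Casq1, the calcium store protein, at 1387 CPM in muscle nuclei against 3.58 CPM in the others, and Jph1, which holds the triad together, at 778 CPM in muscle nuclei against 17.7 CPM in the others.

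The dystrophin complex split by member. Of 18 genes of the complex and the costamere, 11 were higher and 4 lower in muscle nuclei, with a median log2 difference of 1.63. Dmd, which ties the sarcomere to the membrane, was at 3495 CPM in muscle nuclei against 86.7 CPM in the other NWAT nuclei. The intermediate filament gene Des was at 659 CPM in muscle nuclei against 8.93 CPM in the others. Utrn, the relative of dystrophin used in most other cells, was at 151 CPM in muscle nuclei against 1006 CPM in the others, a ratio of 0.150 (0.111 to 0.199), and Sgcd, the sarcoglycan shared with other tissues, at 394 CPM in muscle nuclei against 970 CPM in the others.

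Energy genes were mostly higher too. Of 24 examined, 19 were higher and 1 lower in muscle nuclei, with a median log2 difference of 4.62. Ckm, the muscle creatine kinase, was found in 140 nuclei at 14978 CPM in muscle nuclei against 56.6 CPM in the other NWAT nuclei. Eno3, the muscle enolase, was at 4169 CPM in muscle nuclei against 26.2 CPM in the others, and Pygm, the muscle glycogen phosphorylase, at 1966 CPM in muscle nuclei against 8.11 CPM in the others. The one called lower was Gbe1, the glycogen branching enzyme, at 129 CPM in muscle nuclei against 283 CPM in the others.

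**Figure D2:**
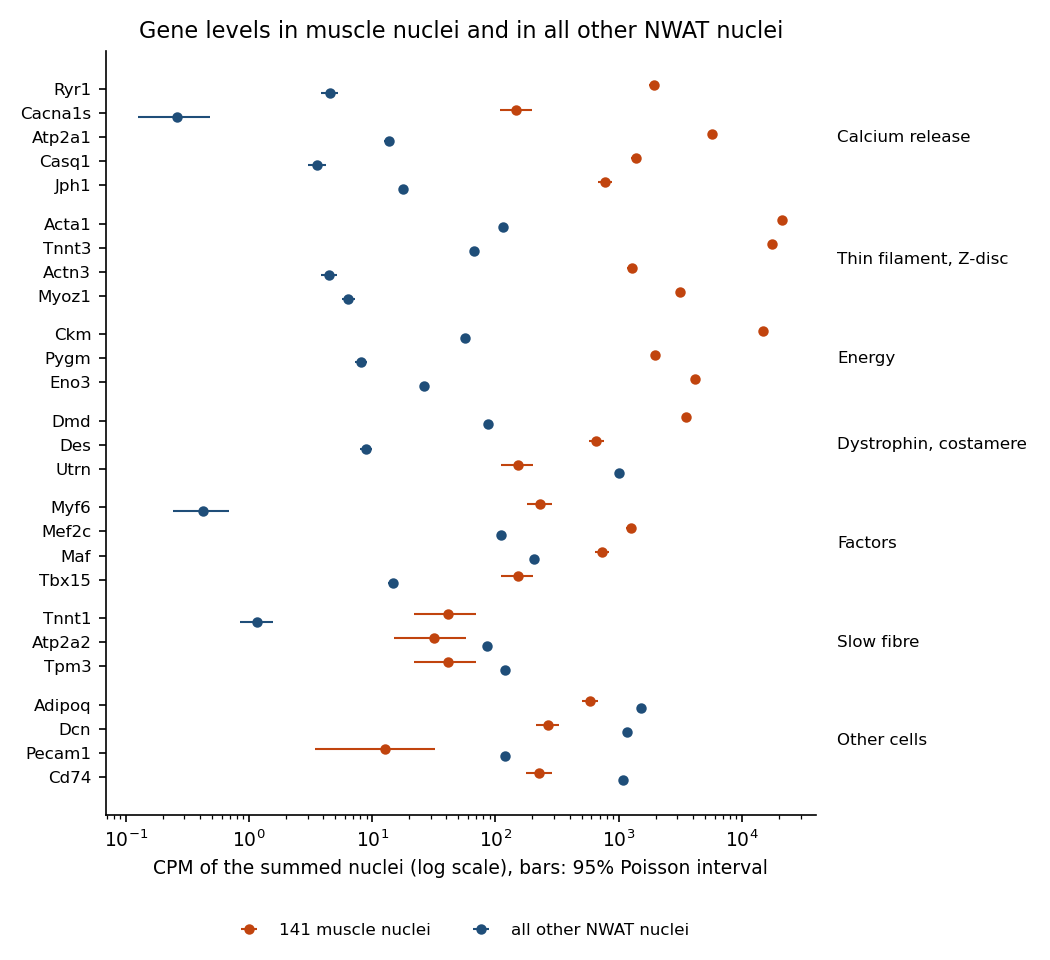
Level of genes by role (x axis, CPM of the summed nuclei on a log scale; bars, exact 95% Poisson intervals) in the 141 muscle nuclei and in the 12639 other NWAT nuclei. Calcium release, thin filament and energy genes lie far to the right in muscle nuclei, while Utrn, Atp2a2, Tpm3 and the markers of other cells lie to the left of the other nuclei.

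Of the myogenic factors, Myf6 had the most UMIs. This factor, which stays on in mature fibres, had 73 UMIs in 39 nuclei, at 230 CPM in muscle nuclei against 0.421 CPM in the other NWAT nuclei. Myog and Myod1, factors of differentiating muscle cells, had 5 and 3 UMIs. Pax7, the satellite cell factor, had 3 UMIs and Myf5 had 0. Of 7 examined genes of the satellite cell and myogenic list, 3 were higher and 2 lower in muscle nuclei. Over all genes 6.36% were higher and 26.8% lower, so the lower count is near the share over all genes.

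Among 19 examined factors tied to fibre identity, 9 were higher and 1 lower, with a median log2 difference of 0.89 (1.70 with genes at 0 set to 3 counts). Mef2c, a partner of the myogenic factors, was at 1261 CPM in muscle nuclei against 111 CPM in the other NWAT nuclei, and Eya4, a transcriptional cofactor, at 422 CPM in muscle nuclei against 19.3 CPM in the others. Tbx15, known in mouse for glycolytic fibres and also for fat depots, was at 151 CPM in muscle nuclei against 14.7 CPM in the others. Sox6, which represses slow genes in fast fibres, was at 1506 CPM in muscle nuclei against 465 CPM in the others, and Maf, a large MAF factor tied to Myh4 in mouse, at 731 CPM in muscle nuclei against 207 CPM in the others. Sox6 and Maf did not stand higher in the 48 muscle nuclei with over 2% mitochondrial UMIs, where their log2 differences from the other nuclei were -1.57 and 0.03.

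Shares of nuclei with a UMI were set beside those in adipocyte-like nuclei. Where the UMIs of these genes in adipocyte-like nuclei came from was not tested. Ttn was found in 97.9% of muscle nuclei against 2.37% of 1434 adipocyte-like nuclei of the library, at median depths of 1789 and 3435 UMIs. With each nucleus thinned to 500 UMIs, the shares were 90.8% and 0.349%. Myh4 was found in 93.6% of muscle nuclei against 3.97% of adipocyte-like nuclei, and after thinning in 86.5% and 0.628%. Myf6 was found in 27.7% of muscle nuclei against 0.0697%, and after thinning in 8.51% and 0%. Sox6 was found in 63.8% of muscle nuclei against 77.0% of adipocyte-like nuclei, and after thinning in 37.6% and 24.7%. Maf was found in 58.2% against 34.6%, and after thinning in 28.4% and 7.25%.

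Genes of specialised regions of the fibre gave few UMIs. Of 12 examined genes of the neuromuscular junction, 6 were higher in muscle nuclei and 1 was lower, but at low counts. Over all genes 6.36% were higher and 26.8% lower. Musk, the kinase that organises the junction, had 12 UMIs in 12 nuclei, at 37.8 CPM in muscle nuclei against 1.45 CPM in the other NWAT nuclei, and Rapsn, which clusters the acetylcholine receptor, had 12 UMIs in 11 nuclei. Chrne, the adult receptor subunit, had 4 UMIs. The fetal subunit Chrng had 0 UMIs, and so did Col22a1 of the tendon junction. Of 8 examined genes of that junction, 0 were higher and 4 lower.

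Of 12 examined genes of atrophy and denervation, 6 were higher and 3 lower in muscle nuclei, against 6.36% higher and 26.8% lower over all genes. Trim63, a muscle ubiquitin ligase, was at 457 CPM in muscle nuclei against 0.711 CPM in the other NWAT nuclei, and Mstn, the growth inhibitor myostatin, at 94.5 CPM in muscle nuclei against 0.342 CPM in the others. Fbxo32, the other well-known ligase, was at 180 CPM in muscle nuclei against 27.1 CPM in the others. Runx1, which climbs in denervated mouse muscle, was at 12.6 CPM in muscle nuclei against 65.8 CPM in the others. Of 10 immediate early genes 3 were lower and 1 was higher, Nr4a1, a nuclear receptor, with 99 UMIs in 47 nuclei and 312 CPM in muscle nuclei against 2.92 CPM in the others. All 99 lay in the 93 muscle nuclei with 2% mitochondrial UMIs or less.

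Among 15 examined genes of body position, 2 were higher in muscle nuclei and 4 lower, against 6.36% higher and 26.8% lower over all genes. The 2 were Tbx15 and Hoxc10, a gene of the lower trunk and hindlimb, which had 12 UMIs and stood at 37.8 CPM in muscle nuclei against 15.4 CPM in the other NWAT nuclei (ratio 2.46, 1.27 to 4.34). Hoxa9 was at 15.8 CPM in muscle nuclei against 61.6 CPM in the others and Hoxc8 at 25.2 CPM in muscle nuclei against 62.0 CPM in the others. The limb factors Tbx5, Tbx4 and Pitx1 had 0 UMIs in muscle nuclei.

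Outside every list, the genes with the highest ratios were largely muscle genes and noncoding RNAs. By ratio, among genes found in at least 10% of the muscle nuclei, the first 15 were Gm13601, Gm49906, Gm13490, 5730419F03Rik, Mylk4, Prr33, Ppp1r3a, Asb18, Nctc1, Myhas, Tmem233, Fbxo40, Ppp1r27, Myo18b and Dusp27. Mylk4, a myosin light chain kinase family member, gave the most UMIs of these, 1930 in 101 nuclei, at 6082 CPM in muscle nuclei against 7.90 CPM in the other NWAT nuclei. Of its 300 UMIs in the other nuclei, 247 lay in the 21 with 6 or more muscle UMIs, and without those nuclei it was at 1.40 CPM (1.05 to 1.83) in the others. Ppp1r3a, the subunit that directs a phosphatase to muscle glycogen, was at 561 CPM in muscle nuclei against 0.816 CPM in the others. Nctc1, a noncoding RNA near H19 and Igf2, had 360 UMIs in 82 nuclei. Prr33 overlaps Tnnt3 on the opposite strand and Gm13601 overlaps Xirp2 likewise, so their counts are uncertain where strands were not kept apart.

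Markers of other muscles and other cells were checked for the whole set of nuclei. Of 13 heart markers, 8 were at 0 UMIs, among them Myh6 and Myl7, and Tnnt2 and Ryr2 had 1 UMI each. 2 were called higher: Myl2, with 7 UMIs of which 6 lay in the nucleus led by Myh7, and Actc1, the cardiac actin, which skeletal muscle also makes in development, with 328 UMIs in 74 nuclei and 1034 CPM in muscle nuclei against 3.00 CPM in the other NWAT nuclei. Of 10 smooth muscle markers, 6 were at 0, among them Myh11, and the only one higher was Des, which skeletal muscle shares. Abcc9, a potassium channel subunit that muscle and pericytes share, was the only one of 8 pericyte markers called higher, at 230 CPM in muscle nuclei against 18.0 CPM in the others, and the pericyte marker Rgs5 was at 0. Of the thermogenic genes outside the rule, 7 of 12 examined were higher and 3 lower, against 6.36% higher and 26.8% lower over all genes. Muscle uses most of these genes too (Cox8b was at 343 CPM in muscle nuclei against 14.2 CPM in the others), while Ucp1 had 0 UMIs.

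RNA of other cells was present at a lower level. The 6 limiting genes were left out here, since the rule fixed them. Of the remaining markers, 10 of 10 of adipocytes, 8 of 8 of stromal cells, 8 of 8 of endothelium, 8 of 9 of immune cells and 7 of 8 of mesothelium were called lower in muscle nuclei. They were not at 0: Adipoq was at 586 CPM in muscle nuclei against 1530 CPM in the other NWAT nuclei and was found in 81 of 141 nuclei, and the immune gene Cd74 was at 227 CPM in muscle nuclei against 1089 CPM in the others. The 10 adipocyte markers summed to 3495 CPM in muscle nuclei against 13434 CPM in the others, with 0 to 1.60% of the UMIs of a muscle nucleus and a median of 0.272%. Their part in the levels of muscle nuclei was not tested. As a stand-in for free RNA, the summed profile of the other NWAT nuclei was subtracted at the level the adipocyte markers set, 26.0% of the UMIs. Myh4 then led in 88.7% of the nuclei. Myh4 was at only 28.0 CPM in the subtracted profile, so this step could hardly change the leading chain and says little about it. Of the 10 markers behind the 26.0%, Ghr gave the most UMIs in nuclei led by Myh4. It had 384 UMIs in 94 nuclei, against 162 of Adipoq in 71. Whether muscle nuclei made Ghr themselves was not tested.

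The muscle nuclei did not form a uniform set. In 48 of them mitochondrial UMIs were above 2%, against 93 at 2% or less, whereas 547 of the 12639 other NWAT nuclei (4.33%) were above 2%. The 48 nuclei were shallow, with a median of 939 UMIs and 427.5 genes, against 2052 UMIs and 1056 genes in the 93. Transcripts of 8 short contractile and energy genes (Acta1, Ckm, Tnnt3, Tnnc2, Mylpf, Tpm1, Myl1 and Tnni2) took a median of 25.8% of the UMIs in the 48 nuclei, against 5.02% in the 93 and 0.0914% in the other NWAT nuclei. Malat1, an abundant RNA that stays in the nucleus, took a median of 0.792% in the 48, against 14.3% in the 93 and 9.99% in the other NWAT nuclei.

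Genes differed in opposite directions between these subsets. Acta1 was at 48019 CPM in the 48 nuclei above 2% and at 13208 CPM in the 93 others, a ratio of 3.64 (3.47 to 3.81). For Tnnc2, the fast troponin C, the ratio was 4.38 (4.15 to 4.63) and for Myh4 2.72 (2.53 to 2.92). Atp2a1 hardly differed, with a ratio of 1.05 (0.937 to 1.17). Ttn had a ratio of 0.444 (0.402 to 0.490) and Trdn and Ryr1 both 0.220. Mylk4 had a ratio of 0.0560 (0.0382 to 0.0794), Dmd 0.0394 (0.0209 to 0.0677) and Malat1 0.107 (0.101 to 0.114). Across the 141 nuclei the mitochondrial share had Spearman correlations of 0.66 with the share of the 8 short genes and -0.77 with the Malat1 share, and these nuclei share a library and their shares share a denominator. The short genes and Malat1 correlated at -0.78. Of the 48 nuclei, 41 were led by Myh4 and 5 by Myh2, so 5 of the 6 nuclei led by Myh2 were among them, against 41 of the 127 led by Myh4.

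**Figure D3:**
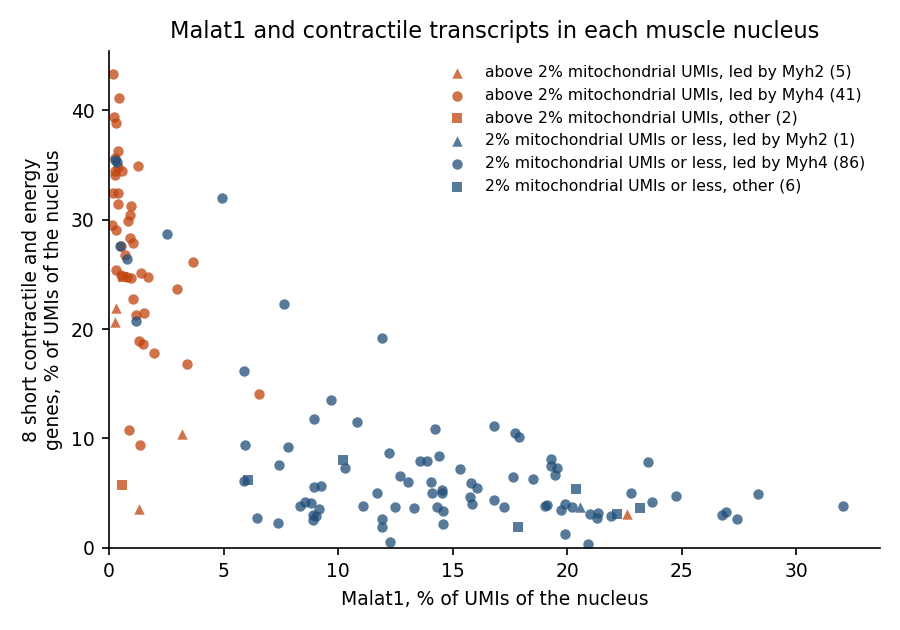
Share of 8 short contractile and energy genes (y axis, % of the UMIs of a nucleus) against the share of Malat1 (x axis, % of the UMIs of a nucleus) in the 141 muscle nuclei, coloured by mitochondrial share with the shape giving the leading myosin. Nuclei above 2% mitochondrial UMIs lie mostly at the upper left, with medians of 25.8% for the short genes and 0.792% for Malat1, and the 93 others mostly along the bottom, with medians of 5.02% and 14.3%.

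The 6 nuclei led by Myh2 (8726 UMIs) were set against the 127 led by Myh4 (297971 UMIs). Of 2381 genes with at least 20 UMIs in both together, 189 were 2-fold or more higher (7.94%) and 121 lower (5.08%) in nuclei led by Myh2. The counts fell with the likely doublets removed, to 124 higher and 37 lower, with 2 nuclei left that were led by Myh2. In the 6 nuclei together 1 UMI was already 115 CPM, and a gene at 0 was set to 3 counts. Genes of low level in nuclei led by Myh4 could thus not be called lower, so 5.08% is no like share for abundant genes. Since 5 of the 6 had more than 2% mitochondrial UMIs, the same ratios were also taken within nuclei above 2% (5 led by Myh2 and 41 by Myh4), where 54 genes were higher and 75 lower. The restriction did not even out Malat1, which was at 68389 CPM in nuclei led by Myh2 and 10342 CPM in those led by Myh4 within nuclei above 2%, a ratio of 6.61 (5.86 to 7.46). 1 of the 5 nuclei led by Myh2, with 22.6% Malat1, carried most of it, and the other 4 had 0.249 to 3.20%. Adipoq was at 1375 CPM in nuclei led by Myh2 against 544 CPM in those led by Myh4. The ratio was 2.53 (1.28 to 4.54), and 2.55 (1.18 to 5.06) within nuclei above 2%. Of 9 examined adipocyte markers, 1 was higher and 1 lower, and the list summed to 3094 CPM in nuclei led by Myh2 against 3547 CPM in those led by Myh4. The part of adipocyte RNA in the ratios below was not tested.

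The highest ratios in nuclei led by Myh2 included genes of oxidative metabolism, although the energy list as a whole did not lean that way. Mb, which encodes the oxygen store myoglobin, had 23 UMIs in 5 of the 6 nuclei led by Myh2 and 16 UMIs in 2 of the 127 led by Myh4. Its level was 2636 CPM in nuclei led by Myh2 against 53.7 CPM in those led by Myh4, a ratio of 49.1 (24.8 to 99.4), and 13.3 (6.74 to 27.0) within nuclei above 2%. Fabp3, the fatty acid carrier of heart and red muscle, was found in all 6 at 5042 CPM in nuclei led by Myh2 against 225 CPM in nuclei led by Myh4, a ratio of 22.4 (14.97 to 33.3), and 9.50 (5.96 to 15.2) within nuclei above 2%. Ckmt2, the mitochondrial creatine kinase, was at 2636 CPM in nuclei led by Myh2 against 443 CPM in those led by Myh4, with ratios of 5.95 (3.65 to 9.31) and 5.38 (2.83 to 9.92) within nuclei above 2%. Cox6a2, a muscle subunit of the respiratory chain, had ratios of 5.23 (3.69 to 7.26) and 2.30 (1.55 to 3.33) within nuclei above 2%. Of 23 examined energy genes, 6 were higher and 11 lower in nuclei led by Myh2, with a median log2 difference of -0.84 against 0.05 over all genes examined.

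Other genes at the top of the ratio rested on few nuclei. Agbl1, a deglutamylase gene, had 38 UMIs in 2 of the 6 nuclei led by Myh2 and 10 UMIs in 6 nuclei led by Myh4. Actn2, a Z-disc actinin, had 20 UMIs in 5 of the 6 and 14 UMIs in 8 of the 127 led by Myh4, at 2292 CPM in nuclei led by Myh2 against 47.0 CPM in those led by Myh4, and Mybpc1 had 19 UMIs in 3, at 2177 CPM in nuclei led by Myh2 against 90.6 CPM in those led by Myh4. Within nuclei above 2%, Actn2 had 11 UMIs in nuclei led by Myh2 and 0 in those led by Myh4, a ratio of at least 34.0 with 3 counts set for the 0. Acadvl of fatty acid oxidation and Lias of lipoic acid synthesis had 5 UMIs each in nuclei led by Myh2, with ratios of 10.0 (2.90 to 28.4) and 9.49 (2.75 to 26.5), but for Lias the ratio within nuclei above 2% was 2.32 (0.0470 to 23.4).

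Of the 15 fast fibre genes outside the rule, 0 were higher and 7 lower in nuclei led by Myh2, with a median log2 difference of -0.82. Pvalb had 1 UMI in the nuclei led by Myh2 and 530 in those led by Myh4, at 115 CPM in nuclei led by Myh2 against 1779 CPM in those led by Myh4, a ratio of 0.0644 (0.00163 to 0.361), and 0.0417 (0.00105 to 0.235) within nuclei above 2%. Actn3 had 1 UMI in nuclei led by Myh2 and 399 in those led by Myh4, a ratio of 0.0856 (0.00216 to 0.480). Mybpc2, the fast myosin-binding protein, had 0 UMIs in nuclei led by Myh2 and 328 in those led by Myh4, a ratio of at most 0.312. Ckm was at 6761 CPM in nuclei led by Myh2 against 15337 CPM in those led by Myh4, a ratio of 0.441 (0.335 to 0.570), and 0.232 (0.175 to 0.302) within nuclei above 2%. Of the 7 fast genes called lower, 6 were also 2-fold lower within nuclei above 2%, and so were 7 of the 11 energy genes called lower. These counts have no share over all genes of that subset beside them. Fast genes not called lower over all such nuclei also became 2-fold lower there. They were Tnnt3, Tpm1, Mylpf, Pgam2, Tnnc2 and Myl1, with ratios from 0.341 (Tpm1) to 0.4996 (Myl1), so the lower levels there were not particular to the genes called before. Of 20 examined genes of excitation-contraction coupling, 1 was higher and 7 lower. The 7 rested on 0 to 6 UMIs in nuclei led by Myh2. Where an interval could be taken it included 1, as for Casq1 (0.484, 0.177 to 1.06) and Bin1 (0.488, 0.0585 to 1.80). Within nuclei above 2% only Casq1 and Bin1 of the 7 were 2-fold lower, with ratios of 0.367 (0.0981 to 0.969) and 0.281 (0.00690 to 1.68). Genes at 0 there, such as Cacng1 with 0 against 23 UMIs (at most 1.21), could not be called lower.

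Several of the lowest ratios could not be read apart from the mitochondrial share. Mylk4 had 0 UMIs in nuclei led by Myh2 against 1881 in those led by Myh4, a ratio of at most 0.0545, but within nuclei above 2% the 0 faced only 32 UMIs and the bound was 0.869. Phka1 of glycogen breakdown, Jph1, Psd3 and the splicing gene Son also had 0 UMIs in nuclei led by Myh2, and their bounds within nuclei above 2% were all above 1. Actc1 had 0 UMIs in nuclei led by Myh2 against 321, a ratio of at most 0.319, and at most 0.352 within nuclei above 2%. Acta1 was at 22003 CPM in nuclei led by Myh2 against 21502 CPM in those led by Myh4, a ratio of 1.02 (0.882 to 1.18), and 0.510 (0.436 to 0.593) within nuclei above 2%. Slow fibre genes summed to 688 CPM (6 UMIs) in nuclei led by Myh2 against 83.9 CPM in those led by Myh4 (25 UMIs) in those led by Myh4. 4 of the 6 UMIs were of Myoz2, a slow-type Z-disc gene, which had 0 UMIs in nuclei led by Myh4, and no gene of the list reached the 20 UMIs needed to be examined.

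**Figure D4:**
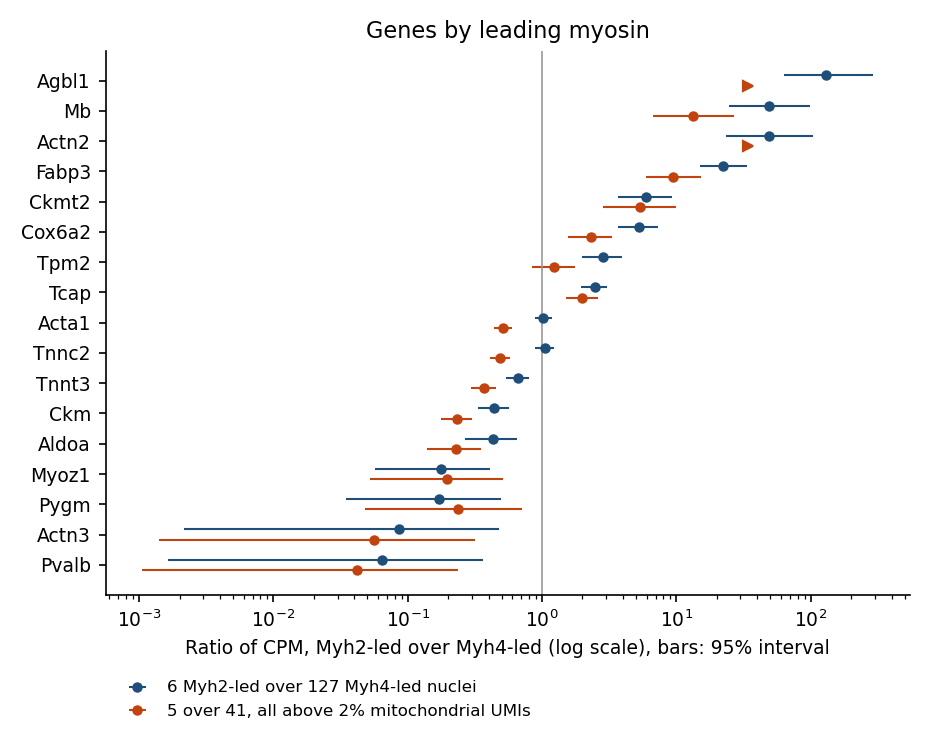
Ratio of CPM in nuclei led by Myh2 over nuclei led by Myh4 (x axis, log scale; bars, exact 95% intervals; triangles, bounds where 1 side had 0 UMIs) for 17 genes, for all such nuclei and within nuclei above 2% mitochondrial UMIs. Mb, Fabp3 and Ckmt2 lie above 1 and Ckm, Myoz1, Pygm, Actn3 and Pvalb below 1 in both sets, while Acta1 and Tnnc2 lie near 1 in the first set and near 0.5 in the second.

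Muscle transcripts were also found outside the muscle nuclei of NWAT. Of the other 12639 nuclei, 11175 had 0 UMIs of the 8 rule genes, 1230 had 1, and 1443 had 1 to 5. The 8 genes summed to 33754 CPM in the muscle nuclei, against 76.1 CPM in the others. Of the other nuclei, 21 had 6 or more muscle UMIs and were kept out by the remaining conditions of the rule, and they held 1142 of the 2889 UMIs of the 8 genes in the other nuclei (39.5%). Without them the level was 46.1 CPM over 12618 nuclei. The levels by cell class are of all 12639 nuclei, with these 21 kept in. The 8 genes were at 32.8 CPM in adipocyte-like nuclei, 97.3 CPM in stromal progenitor-like and 89.2 CPM in endothelial-like nuclei. They were at 67.1 CPM in immune-like, 79.1 CPM in mesothelial-like and 35.8 CPM in pericyte-like nuclei. The 6401 nuclei given no class were at 84.7 CPM and held 1812 of the 2889 UMIs. The long genes Ttn, Neb, Trdn, Ryr1 and Dmd together had 0.216 UMIs for each UMI of the 8 short contractile and energy genes in muscle nuclei, against 0.113 in the other NWAT nuclei and 0.0987 in those with fewer than 6 muscle UMIs. Most long-gene UMIs of the other NWAT nuclei were of Dmd. It had 3293, against 813 of Ttn, 423 of Neb, 333 of Trdn and 172 of Ryr1. Only 109 of the Dmd UMIs lay in the 21 nuclei with 6 or more muscle UMIs. The values of 0.113 and 0.0987 thus largely give the level of Dmd.

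Of the other depots, SWAT, EWAT and MWAT gave no nucleus by this rule and HWAT gave a few. The same rule found 0 of 12306 nuclei in SWAT, 0 of 18514 in EWAT and 0 of 19768 in MWAT, which allow shares of up to 0.0244%, 0.0162% and 0.0152%, and 7 of 12523 in HWAT (0.0559%, 0.0225 to 0.115%). With 1 library a depot, a difference between depots and a difference between dissections cannot be told apart. In 6 of the 7 HWAT nuclei the heart genes Myh6 and Tnnt2 were found, and Ryr1 and Neb were at 0. The other one held 6 Myh4, 15 Ttn and 10 Neb UMIs, with 0 of Myh6. In the NWAT muscle nuclei Myh6 had 0 UMIs.

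Outside the nuclei the rule chose, transcripts of short contractile and energy genes and of Myh4 were higher in NWAT than in the other libraries, while some long genes were not. Myh4 was at 28.0 CPM in NWAT, against 0.0391 CPM in SWAT, 0 UMIs in EWAT and MWAT, and 0.303 CPM in HWAT. Acta1 was at 115 CPM in NWAT, against 5.99 CPM in SWAT, 5.11 CPM in EWAT, 2.52 CPM in MWAT and 4.85 CPM in HWAT. Tnnc2 was at 76.7 CPM in NWAT, against 0.404 to 1.99 CPM in the other depots. Mylpf and Tnnt3, the fast light chain and troponin T, were also highest in NWAT, and Ckm was at 56.6 CPM in NWAT against 27.0 CPM in MWAT, the next highest. Ryr1 was lower in NWAT, at 4.53 CPM (3.88 to 5.26), than in HWAT, at 8.75 CPM (7.58 to 10.0). Ttn was at 21.4 CPM (19.96 to 22.9) in NWAT against 19.0 CPM (17.2 to 20.8) in HWAT, with overlapping intervals. Trdn was at 8.77 CPM in NWAT against 5.92 CPM in MWAT, and Neb at 11.1 CPM in NWAT against 5.97 CPM in EWAT. The slow chain Myh7 was at 0.105 CPM in NWAT and at 1.24 CPM in MWAT.

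Outside the nuclei the rule chose, nuclei with 6 or more muscle UMIs carried part of these levels. Without such nuclei in any depot, a comparison chosen after seeing the data, NWAT was below another depot for 3 of the long genes. Ttn was then at 9.76 CPM (8.79 to 10.8) in NWAT against 16.04 CPM (14.4 to 17.8) in HWAT, Trdn at 3.27 CPM (2.72 to 3.90) in NWAT against 5.72 CPM (4.89 to 6.64) in MWAT, and Ryr1 at 2.77 CPM in NWAT against 8.76 CPM in HWAT. Neb was at 7.70 CPM in NWAT against 5.97 CPM in EWAT. Myh4 was at 20.6 CPM, Acta1 at 99.9 CPM, Tnnc2 at 65.3 CPM and Ckm at 46.2 CPM in NWAT, and each still stood above its level in every other depot.

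**Figure D5:**
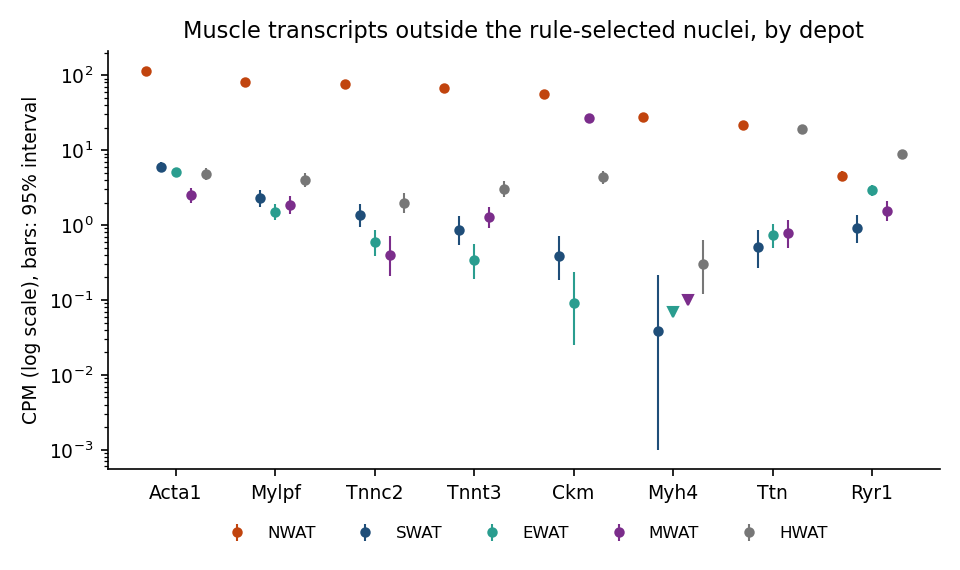
Level of 8 muscle genes in the nuclei that the rule did not choose (y axis, CPM on a log scale; bars, exact 95% Poisson intervals; triangles, the limit of 3 counts where a gene had 0 UMIs) in NWAT and the 4 other depots. NWAT lies far above the other depots for Acta1, Mylpf, Tnnc2, Tnnt3 and Myh4, close to HWAT for Ttn (21.4 CPM in NWAT against 19.0 CPM in HWAT) and below HWAT for Ryr1 (4.53 CPM in NWAT against 8.75 CPM in HWAT).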

How the data were processed

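The deposited files hold raw UMI counts per gene and nucleus for each of the 5 libraries, with 32285 genes and no scaling. Per the file headers, the software was Cell Ranger 6.0.1, and per the labels' protocols the kit was a droplet-based 3′ one. The genome build, mm10, is from the submitters' processing notes. Which annotation release was used and whether intronic reads were counted are not given in the sources used here. Every barcode had at least 500 UMIs, so shallower nuclei could not be examined.

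UMIs were summed over a set of nuclei and scaled to 1000000 (CPM), with exact Poisson intervals, exact conditional intervals of ratios and exact (Clopper-Pearson) intervals of shares. Log2 differences have 0.5 counts added. The computation, in Python 3.11.15 with numpy 2.4.6, scipy 1.17.1 and pandas 2.3.3, was tested on simulated counts. No doublets were removed in the values reported. An alternative removed the 1307 nuclei (10.2%) with the highest simulated-doublet scores (scikit-learn 1.9.0). A nucleus was called X-like where its markers were at least 1.5 times their library mean in sum and led every other list 2-fold, with at least 3 markers detected. Gene positions come from GENCODE vM21 (GRCm38) and promoters from RefSeq (GRCm38.p6).

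The members and lists were chosen with earlier results of these data known. Named genes are the rule's genes, the myosin heavy chains, up to 4 of each list with the most UMIs and markers of other cells at 0, the 15 highest ratios outside the lists, and the 8 highest and 8 lowest ratios by leading myosin. Other genes named were chosen after their values were seen, and so was the condition of more than 3 UMIs on the higher side of a call.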

Additional observations from a re-analysis of the deposited data

How the results depend on the processing

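No paired analysis was possible because each depot was 1 library and the labels give no replicate numbers. The number of muscle nuclei was 115 with 0 UMIs of other types allowed, 93 with a 2% mitochondrial limit, and 106 both with 500 genes asked and with nuclei thinned to 1000 UMIs (35 were too shallow). In alternatives chosen after seeing the data, it was 112 with 20 muscle UMIs and 48 with nuclei above 2% mitochondrial UMIs only. The share led by Myh4 was 96.0% with likely doublets removed and 82.1% after thinning, and the share led by Myh2 was 1.08% under the 2% limit and 10.4% above it. Genes lower in muscle nuclei fell to 2829 after thinning, against 4465 as reported. By leading myosin, genes higher in nuclei led by Myh2 numbered 24 under the 2% limit (with 1 nucleus left), 124 without likely doublets, 112 after thinning and 54 above 2%, and genes lower numbered 26 under the 2% limit, 37 without likely doublets, 78 after thinning, 75 above 2% and 195 with free RNA subtracted. Above 2%, the log2 difference of muscle nuclei was -1.57 for Sox6, and that of nuclei led by Myh2 was 0.55 for Sox6, against -2.45 as reported. Without the 21 other nuclei with 6 or more muscle UMIs, also chosen after seeing the data, log2 differences were 12.07 for Mylk4, 10.73 for Trdn, 10.30 for Ttn, 10.13 for Trim63 and 10.01 for Myf6, against 9.59, 9.31, 9.17, 9.31 and 9.06 as reported. Of 322 values for 23 genes in muscle nuclei, 321 kept their sign, and of 330 for 22 genes by leading myosin, 325 did. Kept signs say little about stability, since the 23 genes include the rule genes Myh4, Ttn and Trdn, whose sign the selection fixed. Other genes, such as Mylk4 at 9.59, started far from a change of sign. In size, 109 of the 322 values and 44 of the 330 moved. That means outside the interval of the reported value, or by a log2 of 1 or more where it had no interval. In each set 1 value was reversed, which asks for a changed sign and a reported log2 difference of at least 1 in size. The causes were not tested. Depth limits rare chains: 500 to 1912 UMIs in nuclei led by Myh2.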
